A study of Homo sapiens with 16 samples.

Results

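The RUNX transcription factors RUNX1, RUNX2 and RUNX3 and their partner CBFB were followed across 3 histone marks in 2 breast cell lines. The 4 genes have 7 promoters on hg19. RUNX1, which is transcribed on the minus strand of chromosome 21, starts at P1 (36421600) and P2 (36260990). RUNX2 starts at P1 (45296054) and P2 (45390222) on the plus strand of chromosome 6, RUNX3 at P1 (25291612) and P2 (25256770) on the minus strand of chromosome 1, and CBFB at 67063050 on the plus strand of chromosome 16. Peaks were taken within 5 kb of each start and over each gene body, whose lengths were 261.5 kb for RUNX1, 222.8 kb for RUNX2, 65.6 kb for RUNX3 and 71.9 kb for CBFB. These places held 45 of the 192665 peaks in the 12 lists, of which 37 were H3K4me3 peaks, 8 were H3K27me3 peaks and 0 were H3K9me2 peaks.

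RUNX proteins bind DNA through the Runt domain, and CBFB does not touch DNA itself but binds that domain and strengthens its grip. RUNX1 is needed for blood stem cells, RUNX2 for bone-forming cells and RUNX3 for T cell and sensory neuron development, and all 3 have been studied in breast and other epithelial tumours. Each RUNX gene has a distal promoter, P1, and a proximal one, P2, which give proteins with different amino ends. H3K4me3 marks promoters that are active or poised, H3K27me3 is laid down by Polycomb repressive complex 2, and H3K9me2 lies in silenced chromatin.

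MDA-MB-231 is a breast cancer line derived from a metastatic site, and MCF-10A is a non-tumorigenic breast epithelial line that the labels call luminal ductal. MCF-10A had been kept with EGF, insulin, cholera toxin and hydrocortisone, both lines came from laboratory stocks, and chromatin was taken from subconfluent cultures. Each mark had 2 libraries per line, called biological replicates in the labels, and by its title the series belongs to work on DNA bound to the nuclear matrix. Each state is represented by a single line, so a difference between the lines cannot be told apart from a difference between a tumour and a non-tumour state. Positions of marker genes on hg19 were not used here, so the labelled cell types were not checked, and the 4 input samples were left out. Without read counts the depth of a list is unknown, and lists of a mark differed in length. For H3K4me3 they held 16193 to 16776 used peaks, apart from 15568 in MCF-10A replicate 1. For H3K27me3 they held 28896 to 30496, apart from 8470 in MDA-MB-231 replicate 1. For H3K9me2 they held 6147 and 5045 in MDA-MB-231, and 10656 and 8885 in MCF-10A.

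The promoters themselves differ in sequence, and the sequences are shown because the P2 promoters, though alike in CpG, did not carry the same marks. The P1 promoters of RUNX2 and RUNX3 also share a run of bases. RefSeq's table on GRCh38.p14 matched 5 of the 7, by gene symbol and by the spacing of the starts. The P2 entry of RUNX1 lies 160.6 kb from the gene's start on that build, against 160.6 kb between P1 and P2 on hg19, and for RUNX2 the distances are 93.9 kb and 94.2 kb. RUNX1 P1 and CBFB had no entry. Each entry runs 5′ to 3′ from 250 bases before to 50 bases after the start, with capitals marking the RUNX core motifs ACCACA and ACCGCA, searched on both strands, so that TGTGGT and TGCGGT also count. The coordinates beside the sequences are those of GRCh38.p14, and all others in the text are hg19.
RUNX2 P1, GRCh38.p14 chr6:45328080-45328379, plus strand: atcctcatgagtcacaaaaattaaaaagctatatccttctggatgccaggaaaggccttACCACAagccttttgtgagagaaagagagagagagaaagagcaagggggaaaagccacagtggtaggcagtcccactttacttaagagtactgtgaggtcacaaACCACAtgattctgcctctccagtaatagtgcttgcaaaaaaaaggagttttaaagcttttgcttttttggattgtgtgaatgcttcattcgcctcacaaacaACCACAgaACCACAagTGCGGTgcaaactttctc
RUNX3 P1, GRCh38.p14 chr1:24964961-24965260, minus strand: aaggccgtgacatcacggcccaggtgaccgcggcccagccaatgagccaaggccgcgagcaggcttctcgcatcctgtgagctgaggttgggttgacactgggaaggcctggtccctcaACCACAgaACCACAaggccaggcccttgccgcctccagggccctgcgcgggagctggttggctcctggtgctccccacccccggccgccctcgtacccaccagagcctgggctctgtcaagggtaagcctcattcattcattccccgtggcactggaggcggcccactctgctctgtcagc
RUNX1 P2, GRCh38.p14 chr21:34888650-34888949, minus strand: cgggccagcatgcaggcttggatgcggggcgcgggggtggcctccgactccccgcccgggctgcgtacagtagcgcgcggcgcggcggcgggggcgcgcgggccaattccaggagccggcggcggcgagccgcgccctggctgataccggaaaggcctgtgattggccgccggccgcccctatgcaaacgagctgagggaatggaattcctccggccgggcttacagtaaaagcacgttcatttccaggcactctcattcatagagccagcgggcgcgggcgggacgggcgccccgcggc
RUNX2 P2, GRCh38.p14 chr6:45422025-45422324, plus strand: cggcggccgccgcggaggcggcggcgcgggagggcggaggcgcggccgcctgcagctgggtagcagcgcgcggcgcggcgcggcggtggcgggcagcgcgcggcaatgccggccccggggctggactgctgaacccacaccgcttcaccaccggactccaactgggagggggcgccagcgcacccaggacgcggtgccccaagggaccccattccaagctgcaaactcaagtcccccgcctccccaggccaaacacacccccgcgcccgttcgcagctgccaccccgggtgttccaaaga
RUNX3 P2, GRCh38.p14 chr1:24930227-24930526, minus strand: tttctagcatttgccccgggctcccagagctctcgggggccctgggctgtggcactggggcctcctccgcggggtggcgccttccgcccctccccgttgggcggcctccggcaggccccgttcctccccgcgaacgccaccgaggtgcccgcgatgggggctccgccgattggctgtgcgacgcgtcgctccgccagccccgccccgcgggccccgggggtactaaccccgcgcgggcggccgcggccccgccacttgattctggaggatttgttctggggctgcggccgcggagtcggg

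The distal promoters of RUNX2 and RUNX3 held RUNX core motifs, 5 in RUNX2 P1 and 2 in RUNX3 P1, whereas the 3 proximal promoters held 0. At least 1 such motif was present in 19.6% of 34796 promoters of the same length, and at least 2 in 2.32%. Both distal promoters contained the 18-base run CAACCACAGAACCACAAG, with 2 motifs in tandem, and no promoter of another gene in the table contained it. It began 14 bases after the entry's start in RUNX2 P1 and 133 bases before the entry's start in RUNX3 P1. The RUNX3 P1 entry starts 0.128 kb from the gene's own start on that build, and the RUNX2 P1 entry 0 kb. The positions of the run therefore depend on which start is used and are not directly comparable. RUNX1 P1, the distal promoter that carried H3K4me3, had no entry, so the run was not searched for there and cannot be tied to the unmarked state. The proximal promoters were rich in CpG, with 40, 39 and 38 CpG dinucleotides in RUNX1, RUNX2 and RUNX3, more than in 92.4%, 91.3% and 90.1% of the promoters. RUNX3 P1 was intermediate, with 15, and RUNX2 P1 had 2, more than in 11.0% of the promoters. A motif match is a description of letters and not of binding.

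**Figure D1:**
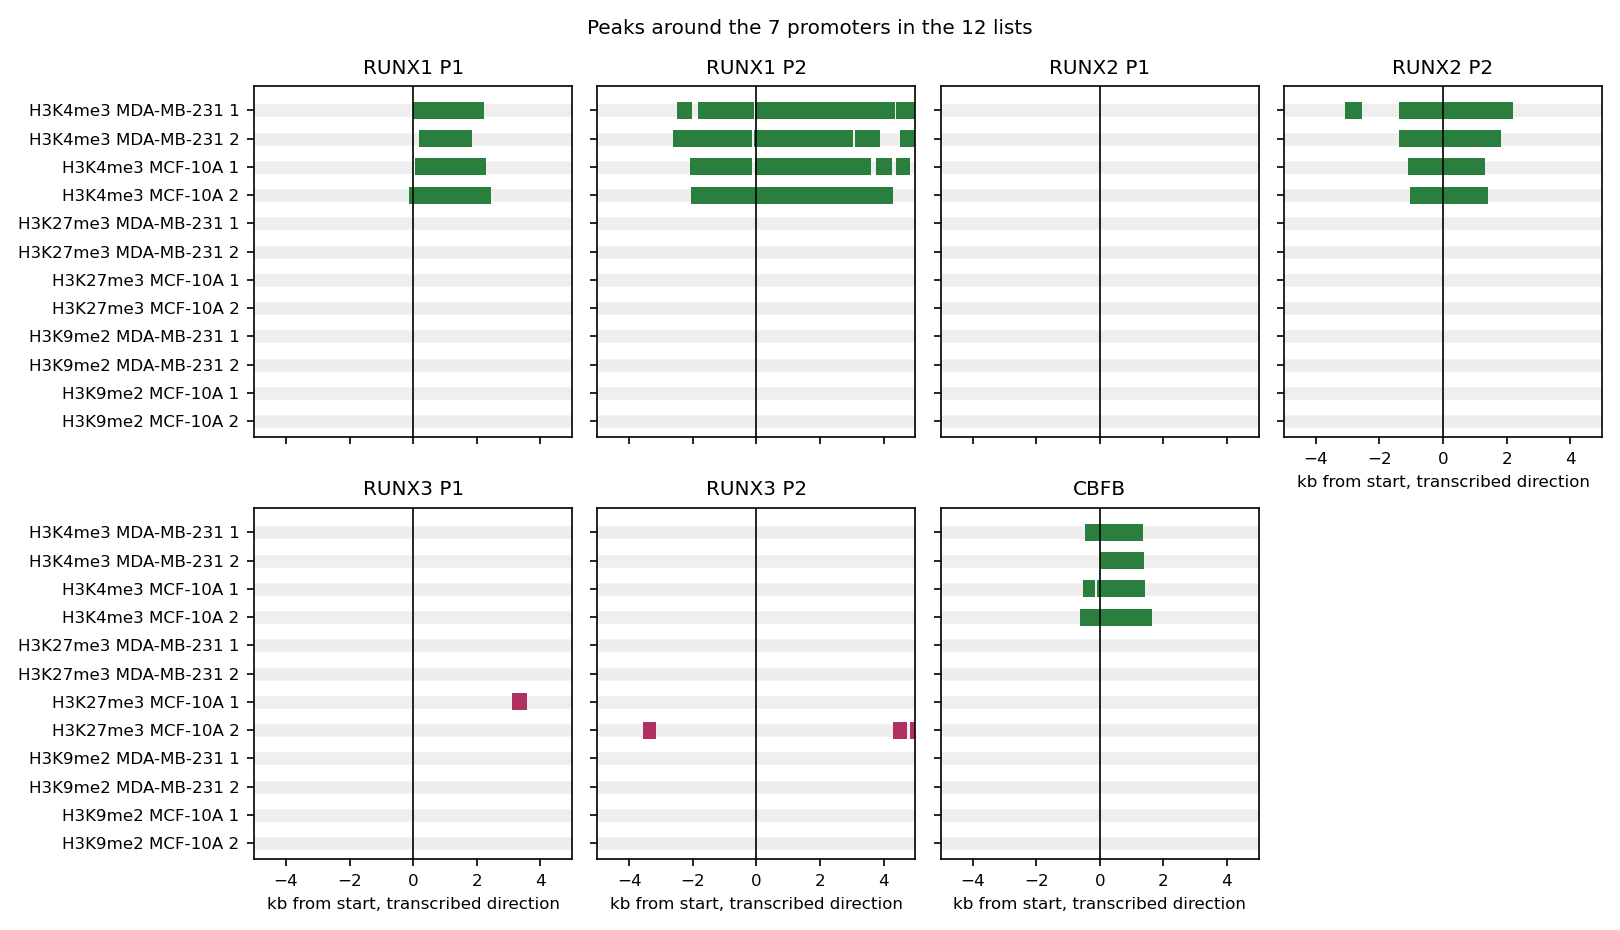
Peaks of the 12 lists around the 7 promoters, with kb from the start in the transcribed direction on the x axis and 1 library per row (mark, line, replicate). H3K4me3 (green) was present at RUNX1 P1, RUNX1 P2, RUNX2 P2 and CBFB in all 4 libraries, and the H3K27me3 peaks (red) lay near the RUNX3 starts in single MCF-10A libraries.

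H3K4me3 separated the promoters in the same way in both lines. Of the 7 windows, 4 held H3K4me3 in all 4 libraries of the mark (RUNX1 P1, RUNX1 P2, RUNX2 P2 and CBFB), and 3 held it in none (RUNX2 P1, RUNX3 P1 and RUNX3 P2). The CpG-rich RUNX3 P2 thus lacked the mark that the CpG-rich P2 of RUNX1 and of RUNX2 carried. For promoter windows without H3K4me3, no share over all promoters was computed. In the whole series 68.5% of 18048 merged H3K4me3 regions were present in all 4 libraries, so the shared state of the 4 marked windows was also the most common one. Their main regions carried neither H3K27me3 nor H3K9me2 in any list, a pattern that 11525 H3K4me3 regions (63.9%) had. Among the 12367 H3K4me3 regions present in all 4 libraries that share was 93.2%, so the pattern was the usual one there. Peak lists come from populations of cells, in which fewer cells with a mark and less of the mark per cell cannot be told apart.

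Cover by H3K4me3 peaks within 5 kb of the start was greatest at RUNX1 P2, with RUNX2 P2 next and RUNX1 P1 and CBFB below it. RUNX1 P2 averaged 7036 ± 239.7 bp in MDA-MB-231 and 6454 ± 155.6 bp in MCF-10A (SD, n = 2 each). RUNX2 P2 averaged 3654 ± 669.6 bp in MDA-MB-231 and 2438 ± 31.1 bp in MCF-10A. RUNX1 P1 and CBFB overlapped each other in both lines: RUNX1 P1 averaged 1940 ± 397.4 bp in MDA-MB-231 and 2401 ± 236.2 bp in MCF-10A, and CBFB averaged 1582 ± 318.2 bp in MDA-MB-231 and 2078 ± 272.2 bp in MCF-10A. In these last 2 windows both MDA-MB-231 values were below both MCF-10A values, for RUNX1 P1 by a narrow margin. RUNX2 P1, RUNX3 P1 and RUNX3 P2 were at 0 bp in all 4 libraries. In MCF-10A, RUNX2 P2 (2416 and 2460 bp) lay between the RUNX1 P1 replicates, so its place in the order was clear in MDA-MB-231 alone.

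**Figure D2:**
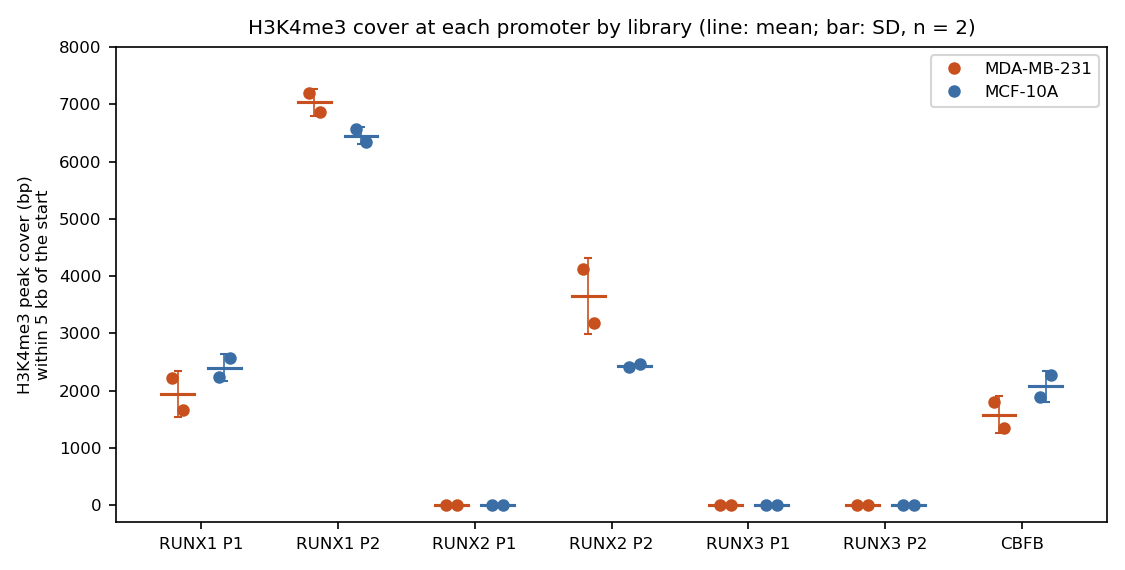
Base pairs covered by H3K4me3 peaks within 5 kb of each start (y axis) in each library (points), with the mean and SD of each line (n = 2). RUNX1 P2 lies at 6344 bp or more in every library, RUNX2 P2 is the promoter with the widest gap between the lines, and 3 promoters lie at 0.

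Differences between the lines were tested with limma across all merged H3K4me3 regions that had a peak in at least 2 of the 4 libraries, on log2(covered bp + 100 bp), with Benjamini-Hochberg adjustment at 0.05. Of 15780 regions, 10% were higher in MDA-MB-231 and 8.66% higher in MCF-10A. The 4 genes held 10 H3K4me3 regions in their windows and bodies, of which 7 were tested and 3 were seen in a single library. One of the 7, RUNX2 P2, was higher in MDA-MB-231, and 0 were higher in MCF-10A. The counts are too small to set against those shares.

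RUNX2 P2 was wider in MDA-MB-231. The region, on chromosome 6 from 45388840 to 45392425, was covered over 3586 and 3180 bp in MDA-MB-231 and over 2416 and 2460 bp in MCF-10A. Both MDA-MB-231 values exceeded both MCF-10A values. The mean cover was 1.39 times as large (log2 ratio 0.45, SE 0.0779, limma adjusted p = 0.0336), and among the 12367 regions present in all 4 libraries 3.61% were called in that direction. The peak reached farther on both sides of the start: 1382 and 1371 bp upstream in MDA-MB-231 against 1090 and 1031 bp in MCF-10A, and 2203 and 1808 bp downstream in MDA-MB-231 against 1325 and 1428 bp in MCF-10A. MDA-MB-231 replicate 1 also had a separate weak peak of 541 bp centred upstream of this region, which no other list held. The call was a narrow one. It was lost without MDA-MB-231 replicate 1 (log2 ratio 0.37, limma adjusted p = 0.108), without MCF-10A replicate 1 (0.44, limma adjusted p = 0.0836), with cover scaled to each library's total (0.41, limma adjusted p = 0.0628) and with the replicate number as a block (0.45, limma adjusted p = 0.0609).

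RUNX2 P1, the distal promoter known for driving the bone isoform, had no peak of any mark within 5 kb in any of the 12 lists. The closest H3K4me3 peak to it began between 48.6 and 48.8 kb downstream in the 4 libraries. That peak, from 45344653 to 45346411, was covered over 1702 and 1759 bp in MDA-MB-231 and over 1555 and 1531 bp in MCF-10A, and it did not pass the test (log2 ratio 0.16, SE 0.0655, limma adjusted p = 0.239). It need not belong to RUNX2. SUPT3H, which encodes a subunit of the SAGA coactivator complex, overlaps RUNX2 on the opposite strand, and its entries in RefSeq's table start 49.3 and 49.6 kb downstream of RUNX2 P1 on GRCh38.p14. A long non-coding RNA, LOC124901324, starts 59 bp upstream of RUNX2 P2 on the opposite strand in the same table, and ChIP peaks carry no strand, so the H3K4me3 at P2 cannot be divided between the transcripts. At the far end of the gene, 218.5 kb from P1, MCF-10A replicate 1 alone had a peak of 544 bp.

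RUNX1 P2 carried one of the broadest H3K4me3 domains in the series. The region, on chromosome 21 from 36256643 to 36263618, spanned 6976 bp, against a median of 1765 bp for the 12367 regions present in all 4 libraries, and 4 of those regions were wider. It was covered over 6609 and 6387 bp in MDA-MB-231 and over 6136 and 6344 bp in MCF-10A. By mean cover 3 regions exceeded it, 3 also with scores of at least 100, and 7 when peaks within 1 kb were merged. In the same order 462 regions exceeded RUNX2 P2, 1919 exceeded RUNX1 P1 and 3593 exceeded CBFB. The lines did not differ detectably (log2 ratio 0.06, SE 0.0487, limma adjusted p = 0.511).

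**Figure D3:**
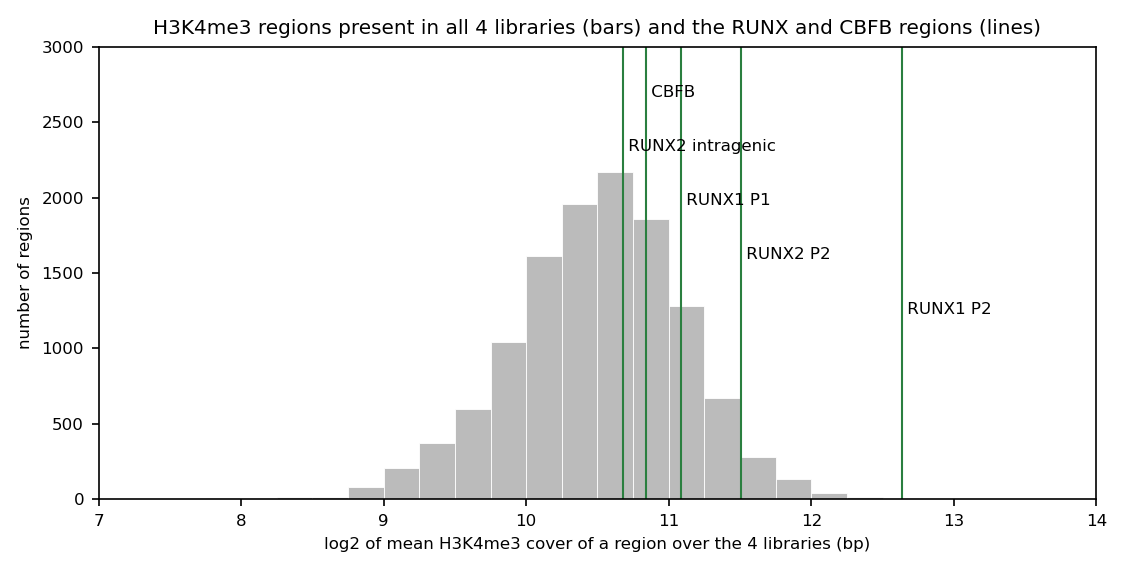
Number of H3K4me3 regions present in all 4 libraries (y axis) by log2 of their mean cover in bp (x axis), with green lines at the RUNX1 P1, RUNX1 P2, RUNX2 P2, RUNX2 intragenic and CBFB regions. RUNX1 P2 lies in the upper tail, with 3 of 12367 regions above it.

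The RUNX1 P2 domain leaned into the gene. Over the 4 libraries 67.0% of its cover within 5 kb lay downstream of the start, with means of 4617 bp downstream and 2419 bp upstream in MDA-MB-231 and of 4421 bp downstream and 2034 bp upstream in MCF-10A. In both MDA-MB-231 libraries and MCF-10A replicate 1 the peaks broke just upstream of the start, leaving a gap from -81 to -31 bp and from -150 to -89 bp in MDA-MB-231 and from -136 to -56 bp in MCF-10A replicate 1. MCF-10A replicate 2 had a single unbroken peak of 6344 bp, wider than 99.98% of the peaks in its list. In MDA-MB-231 the widest peaks here spanned 3872 and 3130 bp, wider than 99.46% and 98.23% of their lists. In MCF-10A replicate 1 the widest spanned 3662 bp, wider than 99.54% of its list. Farther in, from 4.40 to 5.13 kb downstream, a small region was covered over 596 and 613 bp in MDA-MB-231 and over 428 and 0 bp in MCF-10A. It did not pass the test (log2 ratio 1.62, SE 0.902, limma adjusted p = 0.344). The whole 5-kb window was higher in MDA-MB-231 by 581.5 bp, but the sign turned within 2 kb of the start (-97 bp) and with scores of at least 100 (-232.5 bp), so no direction is given for this promoter. Near the end of the gene, 256.6 to 257.2 kb from P1, weak H3K4me3 peaks of 520 and 601 bp met in MDA-MB-231 replicate 1 and MCF-10A replicate 1 at one place, and MCF-10A replicate 1 had another peak, of 284 bp, 249.7 kb from P1.

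RUNX1 P1, the distal promoter used in adult blood cells, was marked far more modestly. Its region from 36419154 to 36421734 was covered over 2221 and 1659 bp in MDA-MB-231 and over 2234 and 2568 bp in MCF-10A. Nearly all of it, 98.5%, lay downstream of the start. The authors' score of its main peak, on a scale that the sources used here do not explain, was higher than 34.1% and 29.0% of the peaks in the 2 MDA-MB-231 lists and than 40.6% and 38.0% in the 2 MCF-10A lists, while the top peak of P2 was higher than 90.1% and 84.0% in the MDA-MB-231 lists and than 89.7% and 71.5% in the MCF-10A lists. P1 thus ranked below P2 within each of the 4 lists. Many top peaks share the score 3100, among them 26.8% of the peaks of MCF-10A replicate 2, which lowers their rank there. Cover did not differ between the lines by the test (log2 ratio -0.30, SE 0.173, limma adjusted p = 0.3501).

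CBFB, the shared partner of the 3 RUNX proteins, was marked by H3K4me3 at its promoter in every library. The region on chromosome 16 from 67062414 to 67064683 was covered over 1807 and 1357 bp in MDA-MB-231 and over 1885 and 2270 bp in MCF-10A. Both MDA-MB-231 values were lower than both MCF-10A values, but the difference did not pass the test (log2 ratio -0.38, SE 0.182, limma adjusted p = 0.285). Of its cover 78.7% lay downstream of the start. In MDA-MB-231 the peak of replicate 2 began 21 bp after the start and that of replicate 1 began 458 bp before it. MCF-10A replicate 2 had a single peak beginning 636 bp before the start, and MCF-10A replicate 1 had 2 peaks, a main one beginning 72 bp before the start and a weak one of 392 bp upstream of it. No other H3K4me3 peak lay over the gene body.

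RUNX3 had no H3K4me3 peak at either promoter or anywhere over its 65.6 kb, in either line. Of consecutive genome windows of that length, 74.3% had no H3K4me3 peak in any of the 4 lists, so this absence was common among such windows. They were taken without regard to promoters, whereas RUNX3 holds P1 and P2. No share over windows that hold a promoter was computed. The nearest H3K4me3 peak lay 81.3 and 81.5 kb from P2 in MDA-MB-231 and 81.5 and 81.6 kb from it in MCF-10A, downstream in every case and past the end of the gene. RUNX3-AS1, an antisense transcript that starts 181 bp upstream of P2 on the opposite strand in RefSeq's table on GRCh38.p14, would share that window and was likewise without a peak. In MDA-MB-231 the gene body was also free of H3K27me3 and H3K9me2 peaks, so it carried none of the 3 marks. Of consecutive genome windows of the same length, 62.8% likewise had no peak of the 3 marks in either MDA-MB-231 library. This state was thus common among windows taken without regard to promoters.

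H3K27me3 over RUNX3 was seen in MCF-10A alone, as peaks of at most 652 bp. Their scores were higher than 4.25% and 8.26% of the list in MCF-10A replicate 1. In MCF-10A replicate 2 they were higher than 15.9%, 32.6%, 41.6% and 46.6% of the list. MCF-10A replicate 1 had 2 peaks and MCF-10A replicate 2 had 4, covering 1.497% and 3.15% of the gene body, against 0 peaks in both MDA-MB-231 libraries. Over the genome the mark covered 0.215% and 0.646% in MDA-MB-231 and 0.7099% and 0.704% in MCF-10A. The replicates met at 1 of the 5 places, between P1 and P2, on chromosome 1 from 25268909 to 25269553, covered over 499 and 537 bp in MCF-10A. This region, 22.1 to 22.7 kb downstream of P1, had a score of 50.91 in replicate 1, close to the lists' lower limit of 50. In replicate 2 its score was 67.94. The other 4 places were seen in 1 replicate each: one 3.10 kb downstream of P1 in replicate 1, and one 3.15 kb upstream of P2 and a pair 4.30 and 4.83 kb downstream of it in replicate 2.

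The region shared by the MCF-10A replicates was the 1 of the 7 H3K27me3 regions of these genes that could be tested, the other 6 having been seen in single libraries. It was called in the direction of MCF-10A, at -2.63 on the log2 scale with SE 0.1303 and a limma adjusted p of 0.0021. Since MDA-MB-231 was at 0 bp, the pseudocount sets the size of this value, which was -5.72 with 10 bp and -1.03 with 500 bp. Of the 18232 H3K27me3 regions tested, 10.9% were higher in MDA-MB-231 and 40.9% higher in MCF-10A. The pattern of both MCF-10A libraries and neither MDA-MB-231 library was shared by 11.1% of all merged H3K27me3 regions, of which 99.8% were called, so the call adds nothing to the pattern. The call was lost without MDA-MB-231 replicate 1, where the log2 ratio stayed at -2.63. That loss was not particular to this region, as the other H3K27me3 calls were lost there too. The region could not be tested with scores of at least 100 or without either MCF-10A replicate. Without the short list of MDA-MB-231 replicate 1 the absence rests on replicate 2, whose 30496 peaks include none over RUNX3. Replicate 2 had more peaks than either MCF-10A list but covered less, 19.6 Mb against 21.5 and 21.4 Mb. Whether the absence depends on the depth of the lists was not tested. Of genome windows of this length, 6.67% had H3K27me3 in both MCF-10A libraries and in neither MDA-MB-231 library.

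**Figure D4:**
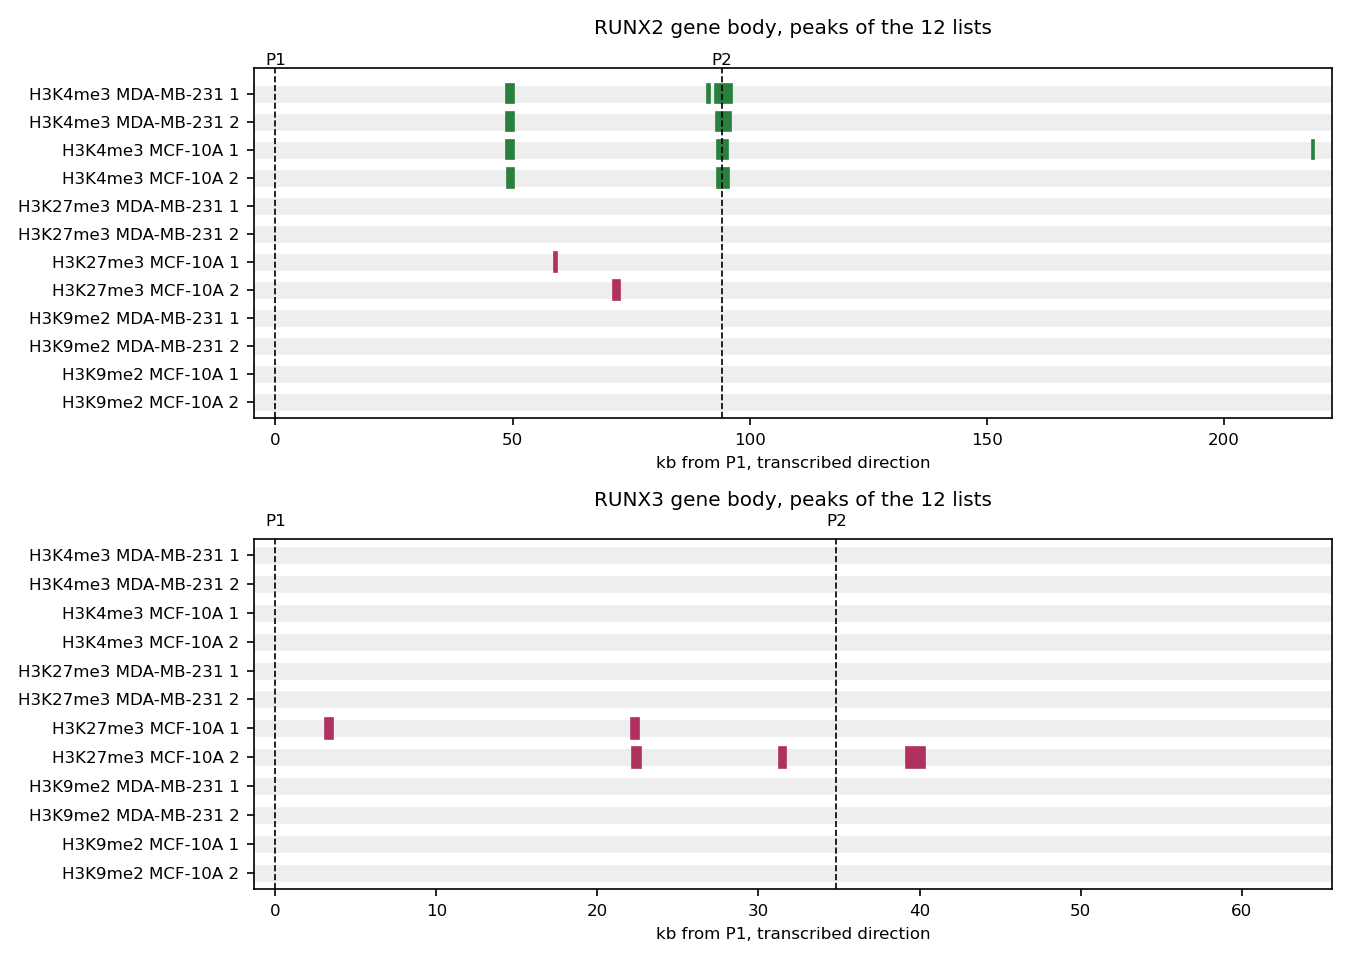
Peaks of the 12 lists over the RUNX2 and RUNX3 gene bodies, with kb from P1 in the transcribed direction on the x axis, 1 library per row, and dashed lines at P1 and P2. RUNX2 has H3K4me3 (green) at P2 and about halfway between the promoters in all 4 libraries, and H3K27me3 (red) appears in MCF-10A libraries only.

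The other gene bodies held little or none of the repressive marks. RUNX2 had 1 H3K27me3 peak in each MCF-10A library, of 556 and 1608 bp, at different places 58.8 and 71.1 kb downstream of P1, and 0 in MDA-MB-231. The peak of replicate 2 had a score of 173.5, higher than 92.1% of its list, and was not seen in replicate 1. Peaks in both MCF-10A libraries and in neither MDA-MB-231 library were found in 12.1% of genome windows of the length of RUNX2. RUNX1 and CBFB had no H3K27me3 peak in any of the 4 lists, and no gene had an H3K9me2 peak. For RUNX1, with 261.5 kb, 34.1% of genome windows of its length that held H3K4me3 in all 4 libraries were without H3K27me3 in every list, and 35.6% were without H3K9me2. For RUNX2, which did hold H3K27me3 in MCF-10A, the share without H3K9me2 was 40.5%, and for CBFB the shares were 65.0% for H3K27me3 and 72.9% for H3K9me2.

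For H3K27me3 both MDA-MB-231 distances exceeded both MCF-10A distances at each of the 7 promoters. P1 and P2 of a gene mostly had the same nearest peak, so the 7 promoters are not separate observations. The list of MDA-MB-231 replicate 1 was also short, with 8470 used peaks. At RUNX3 P2 the nearest peak was 191.9 and 112.8 kb away in MDA-MB-231 and 12.3 and 3.15 kb away in MCF-10A, and at RUNX2 P2 it was 518.6 and 444.0 kb away in MDA-MB-231 and 34.9 and 21.5 kb away in MCF-10A. RUNX1 P1 had the smallest gap between the lines, with 434.3 and 388.9 kb in MDA-MB-231 and 294.0 and 378.4 kb in MCF-10A. The median over the 12367 shared H3K4me3 regions was also longer in MDA-MB-231, at 265.0 and 144.3 kb in MDA-MB-231 and 102.1 and 106.9 kb in MCF-10A, so the members shared the direction of the series as a whole. For H3K9me2 both MDA-MB-231 distances exceeded both MCF-10A distances at the promoters of RUNX1, RUNX3 and CBFB, but the lines overlapped at both RUNX2 promoters. Both MDA-MB-231 lists of H3K9me2 were also shorter, with 6147 and 5045 used peaks against 10656 and 8885 in MCF-10A. Whether the distances follow the length of the lists was not tested. At RUNX2 P1 the nearest H3K9me2 peak was 468.7 and 672.2 kb away in MDA-MB-231 and 460.8 and 616.3 kb away in MCF-10A, and at RUNX2 P2 it was 374.5 and 578.1 kb away in MDA-MB-231 and 366.6 and 710.5 kb away in MCF-10A. The widest gap was at CBFB, where the nearest peak lay 6975 and 7383 kb away in MDA-MB-231 and 113.6 kb away in both MCF-10A libraries, against medians of 329.0 and 341.1 kb in MDA-MB-231 and 118.4 and 140.7 kb in MCF-10A.

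**Figure D5:**
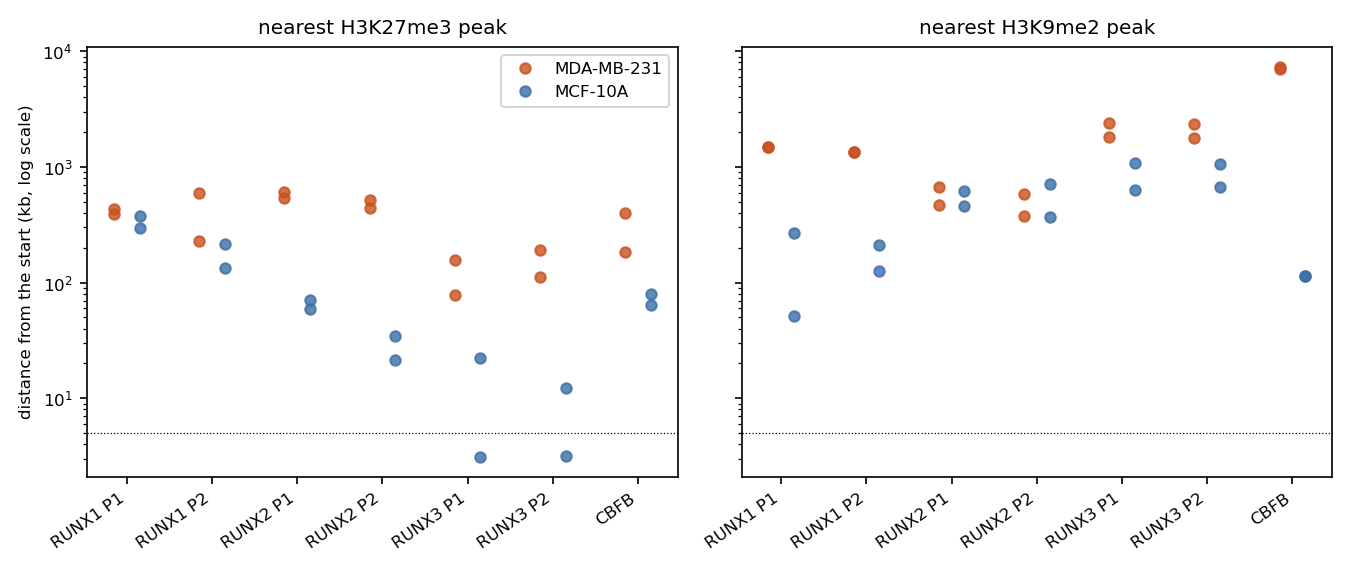
Distance in kb, on a log scale, from each start to the nearest H3K27me3 peak (left) and H3K9me2 peak (right) in each library, with the dotted line at 5 kb. H3K27me3 lies farther away in both MDA-MB-231 libraries than in both MCF-10A libraries at each of the 7 promoters, and the points under the dotted line are the MCF-10A peaks near RUNX3. P1 and P2 of a gene mostly have the same nearest peak, so their points are not independent.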

How the data were processed

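ChIP-seq peak lists of H3K4me3, H3K27me3 and H3K9me2 came from MDA-MB-231 and MCF-10A, with 2 libraries per mark and line and a list for each library. The tools named in the submitters' processing notes are CASAVA 1.6, Bowtie2, MACS 1.4 and bedtools, with hg19 as the build; their settings were not stated. A deposited list gives chromosome, start, end, name and a score per peak from the authors, of unstated scale, never below 50. Peaks on chromosomes 1 to 22 and X were used. Promoter positions were given for this work, and the 3′ ends of gene bodies were entered by hand for hg19. No annotation of that build was used, so marker and pathway genes were not analysed here.

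The members, lists and tests were chosen with earlier results of these data known. Every promoter window and gene body was described, and any region overlapping one was named.

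Overlapping peaks (by 1 bp or more) of a mark's 4 lists were joined into regions. Log2 of covered bp plus a pseudocount of 100 bp, computed from the authors' deposited peak positions, was tested with limma 3.58.1 (trend, empirical Bayes) in R 4.3.3 for regions seen in at least 2 libraries, and the fit was tested on simulated data. There it missed most 2-fold changes in H3K4me3, most changes in H3K9me2 and every change in H3K27me3, and 7.87% of its H3K4me3 calls were false. The simulation gave each region the spread of another region drawn at random, unlike the data. It therefore does not measure how often the fit missed a change here, and a missing call still says little. The log2 scale with the pseudocount understates changes of narrow regions. Python 3.11.15, NumPy 2.4.6, pandas 2.3.3 and matplotlib 3.10.9 did the rest. Alternatives were other pseudocounts, filters, scaling, merging, score limits and window sizes, a replicate block, and each library left out. Depth is unknown. The p-values rest only on the spread between 2 libraries per line, which limma adjusts toward that of all regions fitted.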

Additional observations from a re-analysis of the deposited data

How the results depend on the processing

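Of 81 alternative values for the regions of the 4 genes, 79 kept their direction, 5 of them with the call lost, and 2 changed sign in regions that were not called. The sign changed at RUNX1 P2 with scores of at least 100 (log2 ratio -0.06, against 0.06 as reported) and in the RUNX1 region near the end of the gene without MDA-MB-231 replicate 2 (1.23, against -0.09 as reported). The lost calls were the RUNX2 P2 region without MDA-MB-231 replicate 1, without MCF-10A replicate 1, with scaled cover and with the replicate block, and the RUNX3 H3K27me3 region without MDA-MB-231 replicate 1; the report gives their values. In the remaining alternatives the limma adjusted p of RUNX2 P2 ran from 0.0280 to 0.0405, and why the call was lost in the others was not tested. Of 48 alternative values for cover around the promoters, 2 reversed, both at RUNX1 P2: 581.5 bp in favour of MDA-MB-231 became -97 bp within 2 kb and -232.5 bp with scores of at least 100. A further 9 moved by at least the SE of the reported difference, at RUNX1 P2 with scaled cover (350.9 bp) and at both RUNX3 promoters. The RUNX3 H3K27me3 differences, -241.5 bp at P1 and -521.5 bp at P2, became 0 bp within 2 kb and with scores of at least 100. Without MCF-10A replicate 1 they were 0 and -1043 bp, and without MCF-10A replicate 2 they were -483 and 0 bp. The cause was not tested.

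Counts over all regions moved more. With scores of at least 100 the counts higher in MDA-MB-231 and in MCF-10A were 203 and 2824 for H3K27me3, and 238 and 994 for H3K9me2. Leaving out 1 library at a time, they ran from 116 to 2003 and from 137 to 934 for H3K4me3, from 0 to 21 and from 0 to 10338 for H3K27me3, and from 78 to 1847 and from 12 to 4868 for H3K9me2. In these fits the lone library is assumed to vary like the other line. For H3K27me3, limma gave 112 and 8104 regions with unadjusted p under 0.05 without MDA-MB-231 replicate 1, 349 and 21 without MCF-10A replicate 1, and 310 and 24 without MCF-10A replicate 2. With the replicate block the counts were 1401 and 1236 for H3K4me3, 1974 and 7383 for H3K27me3, and 1731 and 4311 for H3K9me2; the deviations of same-numbered libraries correlated at 0.164, 0.0180 and 0.0390 across regions, and the labels name no shared batch. Peak lists limit what can be seen: a region below a list's lowest score is missing, not measured as 0.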
